A study of Mus musculus with 12 samples.

Results

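Direct WNT target genes were followed in mouse embryonic stem cells. The set holds 10 genes chosen by symbol (Axin2, Tcf7, Sp5, Nkd1, Lgr5, Cdx1, Notum, Rnf43, Znrf3 and Apcdd1), and all 10 were found among 39179 counted genes. The 12 total RNA libraries came from 2 experiments on BMP signalling, the pathway that acts through SMAD1 and SMAD5. In the first, cells with both genes deleted (KO, Smad1/5 -/-, 4 libraries) were compared with cells carrying the floxed alleles (FL, Smad1/5 fl/fl, 2 libraries). KO and FL cells shared a mixed background of CD-1, 129/Ola and C57Bl/6 and grew in 2i with LIF on gelatin. They came from 2 parental lines, each giving 1 FL and 2 KO libraries, and the labels do not name the line of a library. In the second, a reporter line with GFP under a BMP response element (BRE-GFP, mixed CBA and C57Bl/6) grew in fetal calf serum with LIF on feeder cells. Sorting by GFP and by the surface antigen SSEA1 gave BRE-positive and BRE-negative cells (3 libraries each, collected as 3 pairs at 3 times).

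WNT ligands stop the breakdown of beta-catenin, which enters the nucleus and turns on genes bound by TCF and LEF factors. The kinase GSK3 marks beta-catenin for breakdown. The 2i medium holds a GSK3 inhibitor and a MEK inhibitor, and so raises beta-catenin without a ligand, while the serum medium holds neither. Many direct targets of the pathway are its own brakes: AXIN2 is a scaffold of the complex that breaks beta-catenin down, NKD1 binds Dishevelled, NOTUM removes the lipid from WNT ligands, RNF43 and ZNRF3 clear Frizzled receptors from the membrane, and APCDD1 is a membrane inhibitor. LGR5 is an R-spondin receptor, and TCF7, SP5 and CDX1 are transcription factors.

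Library totals were 30117843 to 37319846 counts in KO, 33272807 and 35736653 in FL, 25862573 to 37079106 in BRE-positive and 29804485 to 35044852 in BRE-negative cells. Smad1 had 12.3 to 17.5 CPM (counts scaled to library size) in KO and 18.2 and 19.0 CPM in FL, and Smad5 25.2 to 34.5 CPM in KO and 31.5 and 33.6 CPM in FL. The sources used here do not say which part was deleted, so these counts do not check the genotype. Of 8 markers of embryonic stem cells, Pou5f1 (527 to 940 CPM over the 12 libraries) and Sox2 (416 to 626 CPM) were abundant everywhere. Fut4, on the same list, was low, at 0.118 to 0.410 CPM in 2i and 1.582 to 3.005 CPM in serum. The 9 primitive streak and mesoderm markers summed to at most 8.46 CPM in any library. The 18 feeder fibroblast markers summed to 164 to 400 CPM in the 6 libraries from 2i and 261 to 556 CPM in the 6 from serum. Sparc alone took 138 to 374 CPM of this in 2i and 118 to 240 CPM in serum. Without it, a choice made after seeing the values, the other 17 summed to 24.1 to 40.6 CPM in 2i and 113 to 319 CPM in serum. In 2i, 0 to 5 of the 18 markers had 0 counts in a library, and in serum none did. The collagen gene Col1a2 stood at 0.066 to 0.382 CPM in 2i and 8.12 to 37.7 CPM in serum.

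The members were expressed at very different levels, given here as TPM, the authors' unit of transcripts scaled to gene length and library size. In KO cells Notum was the highest (38.4 ± 7.4 TPM, SD, n = 4), followed by Tcf7 (15.1 ± 1.8) and Axin2 (9.61 ± 1.25). In FL cells the order began with Notum (29.0 ± 0.3 TPM, SD, n = 2) and Tcf7 (15.8 ± 2.4), with Apcdd1 (6.81 ± 1.53) and Axin2 (6.59 ± 0.89) overlapping next. In serum the order began differently. Cdx1 came first in BRE-positive (28.0 ± 12.6 TPM, SD, n = 3) and BRE-negative cells (21.7 ± 8.9), with values that overlapped those of Tcf7 (17.0 ± 0.6 and 16.7 ± 1.3). Notum was the third, at 8.58 ± 2.04 and 9.31 ± 2.97 TPM. Within each group the other neighbours in the order had separate ranges, except Axin2 and Apcdd1 as well as Cdx1 and Sp5 in KO, Znrf3 and Apcdd1 in both serum groups, and Sp5 and Rnf43 in BRE-positive cells.

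Rnf43 and Lgr5 were at the bottom in every group. Rnf43 averaged between 0.102 TPM in KO and 0.192 TPM in BRE-positive cells, with 9 to 49 counts in a library. Lgr5 had 0 to 5 counts in KO, 0 and 2 in FL, 3 or 4 in BRE-positive and 1 to 4 in BRE-negative libraries. It did not pass the expression filter in any comparison, so a change in Lgr5 was not detectable at this depth.

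**Figure D1:**
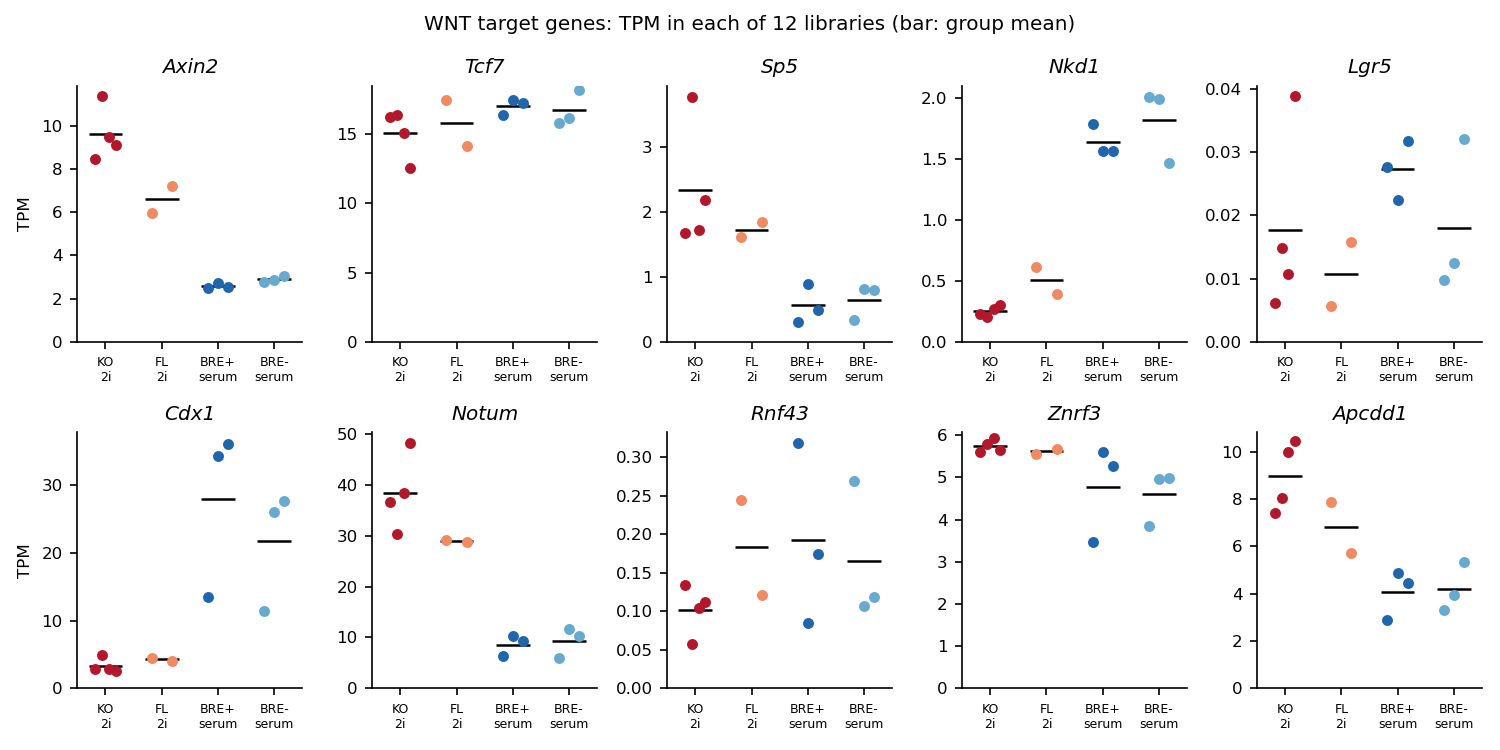
TPM (y axis, linear from 0, a separate scale for each gene) of the 10 WNT target genes in each library, with KO and FL cells in 2i and BRE-positive and BRE-negative cells in serum along the x axis. Points are libraries and bars are group means. Axin2, Sp5, Notum and Apcdd1 lie higher in all 6 libraries from 2i than in all 6 from serum, and Nkd1 and Cdx1 lie lower. The share of all genes separated in this way was not counted, so the separation does not set these members apart. In CPM, FL cells alone did not overlap serum for 60% of all genes tested.

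The first comparison set FL cells in 2i against BRE cells in serum, that is, cultures with and without a GSK3 inhibitor. Axin2, Notum, Sp5 and Apcdd1 were higher in FL cells in 2i, and Cdx1 and Nkd1 were lower. These 6 of 9 tested members passed the threshold (edgeR's quasi-likelihood test, Benjamini-Hochberg adjusted p under 0.05), 4 higher and 2 lower. Of all 16963 genes tested, 52.4% passed, 27.3% higher and 25.1% lower, so a call by itself sets a member little apart. The median log2 fold change was 0.27 over the 9 members and 0.02 over all genes tested. The cultures also differed in MEK inhibitor, feeders, sorting, strain and line, and these cannot be told apart from the GSK3 inhibitor. In bulk RNA, fewer cells that express a gene and less RNA per cell cannot be told apart either.

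Axin2 (ENSMUSG00000000142, chromosome 11, 108920349 to 108950783, plus strand, mm10) is the member most often used to read the pathway. It had 22.9 and 27.2 CPM in FL cells, against 10.1, 9.33 and 8.64 CPM in BRE-positive and 11.5, 10.99 and 11.6 CPM in BRE-negative cells. Both FL libraries were above all 6 serum libraries, which lay close together. FL cells were higher by 1.26 ± 0.15 on the log2 scale (SE, edgeR adjusted p = 5.63e-05). In KO cells, also in 2i, Axin2 reached 34.3, 46.9, 35.5 and 33.7 CPM.

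Notum (ENSMUSG00000042988, chromosome 11, 120653788 to 120661175, minus strand) showed a larger difference. It had 44.2 and 43.0 CPM in FL cells, against 10.1, 13.9 and 12.5 CPM in BRE-positive and 9.72, 17.6 and 15.5 CPM in BRE-negative cells. The FL libraries agreed closely, while the 2 serum libraries of pair 1 were the lowest. Its difference was 3.29-fold (log2 fold change 1.72 ± 0.18, SE, edgeR adjusted p = 2.89e-05). The antisense gene Notumos shares 708 exon bases with Notum and stood at 0.902 to 1.98 CPM in 2i and 0.167 to 0.673 CPM in serum, far under Notum. The sources used here do not say whether reads were counted by strand.

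Apcdd1 (ENSMUSG00000071847, chromosome 18, 62922231 to 62961179, plus strand) had 10.5 and 7.49 CPM in FL cells. In serum it had 4.04, 5.83 and 5.26 CPM in BRE-positive and 4.72, 5.23 and 7.03 CPM in BRE-negative cells. The lower FL library was only just above the highest serum library. The difference was 1.66-fold (log2 fold change 0.73 ± 0.20, SE, edgeR adjusted p = 0.011). It did not pass without FL replicate 1 (0.45 ± 0.24, adjusted p = 0.16).

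The 2 ubiquitin ligase genes did not pass the threshold. Znrf3 (ENSMUSG00000041961, chromosome 11) had 22.1 and 22.2 CPM in FL cells, against 14.6 to 19.9 CPM in the 6 serum libraries. The groups did not overlap, as was so for 60% of all genes tested, but the log2 fold change of 0.27 ± 0.12 (SE, 95% interval 0.00 to 0.54, edgeR adjusted p = 0.088) missed the threshold. With KO in place of FL it was 0.33 ± 0.10 and passed (edgeR adjusted p = 0.018). Rnf43 (ENSMUSG00000034177, chromosome 11) had 1.09 and 0.519 CPM in FL cells and 0.321 to 1.52 CPM in serum, with the highest 2 values in the libraries of pair 1. Its log2 fold change of 0.01 ± 0.56 had a 95% interval of -1.22 to 1.24, so a change of 2-fold either way could not be told from none.

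Nkd1 (ENSMUSG00000031661, chromosome 8, 88521354 to 88594884, plus strand), a brake like Axin2, differed in the opposite direction. It had 1.01 and 0.628 CPM in FL cells, against 3.17, 2.35 and 2.33 CPM in BRE-positive and 3.64, 3.34 and 2.42 CPM in BRE-negative cells. All serum libraries were above both FL libraries. Nkd1 was 3.53-fold lower in FL cells (log2 fold change -1.82 ± 0.30, SE, edgeR adjusted p = 5.48e-04). In the 4 KO libraries Nkd1 was lower still, at 0.339 to 0.462 CPM. Its relative Nkd2 was also lower in FL cells (-2.36 ± 0.33, edgeR adjusted p = 1.84e-04).

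Among the transcription factors, Sp5 (ENSMUSG00000075304, chromosome 2, 70474923 to 70477729, plus strand) was low in serum, with 7 to 22 counts in a library. It had 1.21 and 1.37 CPM in FL cells, against 0.218, 0.588 and 0.300 CPM in BRE-positive and 0.250, 0.588 and 0.572 CPM in BRE-negative cells. Both FL values were above all 6 serum values. The difference was 3.02-fold (log2 fold change 1.596 ± 0.463, SE, edgeR adjusted p = 0.014) and did not pass without FL replicate 2 (1.51 ± 0.60, adjusted p = 0.071).

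Cdx1 (ENSMUSG00000024619, chromosome 18, 61018862 to 61036199, minus strand), a homeobox gene of the body axis, had the largest difference of the members. It had 2.84 and 2.51 CPM in FL cells, against 9.14, 19.7 and 20.6 CPM in BRE-positive and 7.88, 16.6 and 17.6 CPM in BRE-negative cells. Pair 1 was well under pairs 2 and 3 in both sorted groups, yet above every library from 2i. It was 5.74-fold lower in FL cells (log2 fold change -2.52 ± 0.41, SE, edgeR adjusted p = 4.71e-04), and -2.82 ± 0.32 without pair 1.

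Tcf7 (ENSMUSG00000000782, chromosome 11, 52252371 to 52283014, minus strand), which encodes TCF1, had 21.4 and 17.0 CPM in FL cells. In serum it had 21.3, 19.2 and 18.9 CPM in BRE-positive and 20.9, 19.8 and 22.1 CPM in BRE-negative cells. The groups overlapped, and the log2 fold change was -0.10 ± 0.16 (SE, 95% interval -0.46 to 0.26, edgeR adjusted p = 0.64).

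**Figure D2:**
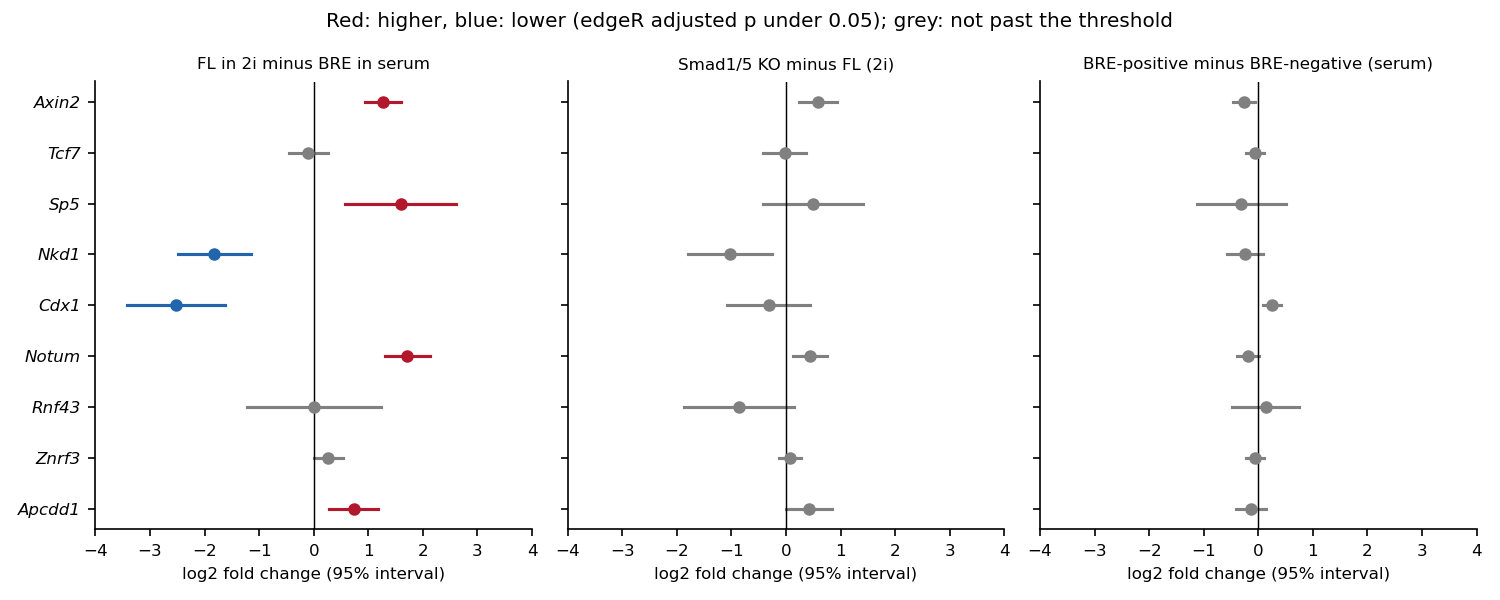
Log2 fold change (x axis) with its 95% interval for the 9 tested WNT target genes (y axis) in the 3 comparisons, from edgeR's quasi-likelihood fits. The left panel holds 4 genes called higher (red) and 2 called lower (blue), and the other panels hold none, although the intervals of Axin2, Notum, Nkd1 and Apcdd1 for KO and of Axin2 and Cdx1 for BRE-positive cells are clear of 0.

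Of the promoters, 3 are shown because their genes rose (Sp5 and Axin2) or fell (Nkd1) in FL cells in 2i relative to serum. Windows of 250 bases before a transcript start were taken from RefSeq on GRCm38.p6, which held 5 members by symbol (Axin2, Nkd1, Rnf43, Sp5 and Tcf7). RefSeq's starts need not be the outermost start of a gene in GENCODE: the Nkd1 window, both Rnf43 windows and 1 of the 2 Tcf7 windows lie inside the GENCODE gene, and those of Sp5 and Axin2 lie just before it. They were searched on both strands for the TCF and LEF motifs CTTTGA and CTTTGT. Capitals mark the matches, none of which overlap.
Sp5, chr2:70474673-70474922, plus strand: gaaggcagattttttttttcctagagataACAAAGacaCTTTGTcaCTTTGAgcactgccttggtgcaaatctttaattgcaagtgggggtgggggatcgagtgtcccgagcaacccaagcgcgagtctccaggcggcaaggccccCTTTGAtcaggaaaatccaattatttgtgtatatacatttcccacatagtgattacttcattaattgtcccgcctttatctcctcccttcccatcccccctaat
Axin2, chr11:108920099-108920348, plus strand: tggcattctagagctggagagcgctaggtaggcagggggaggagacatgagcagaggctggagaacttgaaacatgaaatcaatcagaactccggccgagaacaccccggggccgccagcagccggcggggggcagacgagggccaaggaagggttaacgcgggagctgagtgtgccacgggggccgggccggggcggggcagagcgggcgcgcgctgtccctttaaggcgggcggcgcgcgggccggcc
Nkd1, chr8:88527383-88527632, plus strand: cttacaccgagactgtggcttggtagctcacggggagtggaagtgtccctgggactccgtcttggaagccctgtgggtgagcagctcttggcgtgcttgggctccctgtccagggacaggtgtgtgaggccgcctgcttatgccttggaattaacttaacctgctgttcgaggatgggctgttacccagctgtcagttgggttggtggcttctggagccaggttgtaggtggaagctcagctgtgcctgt
The Sp5 window held 4 matches. One on the reverse strand began 221 bases before the start, and 3 on the forward strand began 212, 204 and 104 bases before it. Of 32851 windows of this length, 27.6% held at least 1 match and 0.0944% held at least 4. The cutoff of 4 is the count of the Sp5 window itself, so that share is description only and tests nothing about Sp5. The windows of Axin2, Nkd1, Rnf43 and Tcf7 held 0 matches, which says only that these letters are not in these windows.

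The rest of the pathway was mixed in the same comparison, in FL cells in 2i relative to serum. The counts of every list that follows stand beside 27.3% of all genes tested called higher and 25.1% lower, so mixed calls by themselves set a list little apart. Of 12 TCF/LEF factors and cofactors, 1 was higher and 4 were lower. The call upward was Lef1, a TCF family gene that is itself a reported target, at 30.6 and 14.2 CPM in FL cells, against 0.639 to 4.12 CPM in serum (log2 fold change 3.49 ± 0.50, SE, edgeR adjusted p = 2.06e-04). Tcf7l2 (-2.18 ± 0.39), the corepressor gene Tle2 (-1.26 ± 0.39) and the coactivator gene Bcl9 (-1.10 ± 0.17) were lower. Tcf7l1, the main TCF repressor of embryonic stem cells, had 0.26 ± 0.18 (edgeR adjusted p = 0.24). Of 5 genes reported to be held down by TCF7L1, Klf2 (0.79 ± 0.09) and Nanog (0.66 ± 0.18) were higher and Tfcp2l1 (-0.86 ± 0.14) and Esrrb (-0.51 ± 0.13) lower.

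Of 13 tested ligand and secretion genes, 4 were higher and 3 lower. Wnt8a was at 1.98 and 6.01 CPM in FL cells, against 0.218 to 0.668 CPM in serum (log2 fold change 3.16 ± 0.60, SE). Wnt16 (1.94 ± 0.52) and Wnt3a (1.89 ± 0.41) were higher too, and Wnt10a was lower (-2.27 ± 0.80), all at low levels. Wnt16 had 0.301 and 0.532 CPM in FL cells and at most 0.188 CPM in BRE-positive cells. Wnt3a had 0.739 and 1.15 CPM in FL cells and at most 0.413 CPM in BRE-positive cells. Wnt10a had 0.055 and 0.059 CPM in FL, 0.028 to 0.221 in KO, 0.107 to 0.563 in BRE-positive and 0.135 to 0.305 in BRE-negative cells. Of 18 receptor and R-spondin genes, 4 were higher, led by the receptor kinase gene Ror1 (2.81 ± 0.46), and 8 were lower, led by the Frizzled genes Fzd7 (-1.94 ± 0.17), Fzd5 (-1.77 ± 0.16) and Fzd3 (-1.59 ± 0.20). Of 9 tested secreted inhibitors and their coreceptors, 0 were higher and 5 lower. Among these 5, Kremen2 (-3.56 ± 0.48) encodes a receptor for Dickkopf proteins and Sfrp1 (-1.29 ± 0.18) a soluble WNT binder, and Dkk2 had 0 counts in both FL libraries and 0.062 to 1.01 CPM in serum.

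The beta-catenin gene Ctnnb1 did not pass (log2 fold change -0.07 ± 0.08, SE, edgeR adjusted p = 0.49). Of the 2 genes of GSK3, Gsk3a was higher (0.24 ± 0.09, edgeR adjusted p = 0.042) and Gsk3b did not pass (0.09 ± 0.12, adjusted p = 0.54). Of 15 genes of the destruction complex and Dishevelled, 3 were higher, Amer1 (0.92 ± 0.09), Btrc (0.81 ± 0.11) and Gsk3a, and 2 lower, Tnks (-0.72 ± 0.09) and Dvl2 (-0.30 ± 0.12). Of 8 tested other reported WNT targets, Ascl2 was higher (1.57 ± 0.29) and Myc (-2.41 ± 0.34), Nkd2 and Bambi (-1.02 ± 0.16) were lower. T (-0.22 ± 0.48, edgeR adjusted p = 0.72) and Ccnd1 (-0.24 ± 0.20, adjusted p = 0.34) did not pass.

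Of 9 genes that respond to FGF and ERK, 7 were lower in FL cells in 2i, with Egr1 at 0.118 and 0.820 CPM in FL cells against 33.2 to 48.5 CPM in serum, and 1 was higher (Etv5, 0.51 ± 0.09). Of the 18 feeder markers, 15 were lower and 0 higher. Of 7 tested primitive endoderm markers 5 were lower and 0 higher, of 6 tested streak markers 1 was higher and 0 lower, and of 8 markers of embryonic stem cells 2 were higher and 2 lower. The part of any of these lists in the changes of the WNT target genes was not tested.

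**Figure D3:**
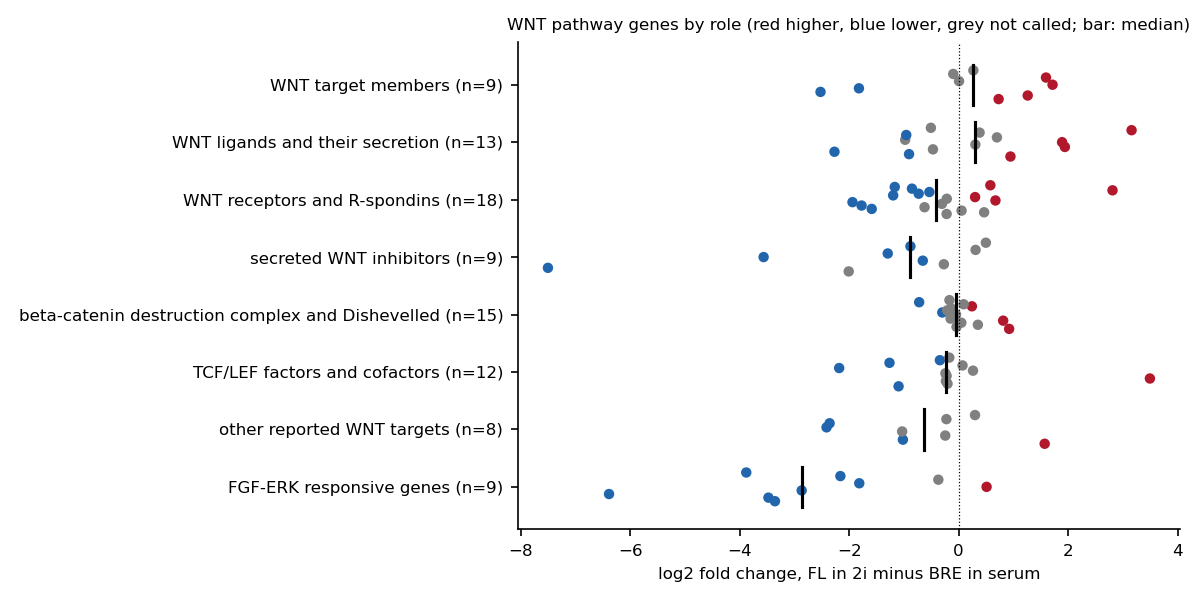
Log2 fold change, FL cells in 2i minus BRE cells in serum (x axis), of each tested gene in 8 groups of genes (y axis), with red for calls upward, blue for calls downward, grey for genes past no threshold and a bar at the group's median. The WNT target genes lie on both sides of 0, and the point near -7.5 is Dkk2, whose fitted value is no measure of size because FL cells had 0 counts.

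The second comparison asked whether loss of SMAD1 and SMAD5 changed these genes within 2i. Axin2, Notum and Apcdd1 averaged higher and Nkd1 lower in KO than in FL cells, but 0 of 9 tested members passed the threshold by edgeR, against 5.03% of 15933 genes tested, 1.85% higher and 3.18% lower. With unadjusted p under 0.05 by edgeR there were 4 (Axin2, Notum, Nkd1 and Apcdd1), beside 3646 of the 15933 genes. DESeq2 called 1 member (Axin2), beside 1498 of the 15933 genes. The 2 KO libraries from a line share their parental line, while the fit takes all 4 as independent. The FL libraries also served in the comparison with serum, so the values of the 2 comparisons are not independent of each other.

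Axin2 had 34.3, 46.9, 35.5 and 33.7 CPM in KO replicates 1 to 4, against 22.9 and 27.2 CPM in FL cells. All KO libraries were above both FL libraries, as KO and FL did not overlap for 34.5% of all genes tested. KO cells were higher by 0.59 ± 0.15 on the log2 scale (SE, 95% interval 0.24 to 0.94, edgeR adjusted p = 0.069), and 0.58 ± 0.16 with DESeq2 (adjusted p = 0.0077). Without KO replicate 2, the highest, it was 0.46 ± 0.10 (edgeR adjusted p = 0.059).

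Notum had 58.5, 49.2, 56.9 and 70.4 CPM in KO cells, against 44.2 and 43.0 CPM in FL cells. The groups did not overlap, and the log2 fold change was 0.43 ± 0.13 (SE, 1.35-fold, 95% interval 0.12 to 0.74, edgeR adjusted p = 0.11). Nkd1 had 0.374, 0.339, 0.414 and 0.462 CPM in KO cells (11 to 15 counts), against 1.01 and 0.628 CPM in FL cells (34 and 23 counts). Here too the groups did not overlap (log2 fold change -1.03 ± 0.33, SE, 95% interval -1.80 to -0.27, edgeR adjusted p = 0.12).

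Apcdd1 had 10.4, 11.5, 13.0 and 13.4 CPM in KO cells and 10.5 and 7.49 CPM in FL cells, which overlapped (log2 fold change 0.42 ± 0.18, SE, edgeR adjusted p = 0.21). Sp5 had 1.33, 3.08, 1.27 and 1.58 CPM in KO cells and 1.21 and 1.37 CPM in FL cells. KO replicate 2 held the highest Sp5 and the highest Axin2 of all 12 libraries. The log2 fold change of Sp5 was 0.50 ± 0.40 (SE, edgeR adjusted p = 0.50), and 0.10 ± 0.26 without that library.

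For the remaining members the groups overlapped. Cdx1 had 1.87, 3.39, 1.77 and 1.52 CPM in KO cells and 2.84 and 2.51 CPM in FL cells (log2 fold change -0.32 ± 0.33, SE). Rnf43 (-0.87 ± 0.44), Znrf3 (0.07 ± 0.09) and Tcf7 (-0.03 ± 0.17) had edgeR adjusted p-values of 0.28, 0.69 and 0.95. The interval of Znrf3 was the narrowest, -0.14 to 0.28.

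Elsewhere in the pathway a few genes were called in KO cells, where 5.03% of all genes tested passed. Lower were the ligand gene Wnt7b (log2 fold change -2.04 ± 0.39, SE), Porcn (-1.31 ± 0.17), which encodes the enzyme that attaches the lipid to WNT ligands, Fzd3 (-1.17 ± 0.22), Fzd9 (-1.07 ± 0.24), the cofactor gene Pygo1 (-1.29 ± 0.25) and Btrc (-0.45 ± 0.10). Higher were the R-spondin receptor gene Lgr4 (0.54 ± 0.09) and Myc (1.25 ± 0.28). That made 0 higher and 2 lower of 12 ligand and secretion genes, 1 and 2 of 18 receptor genes, 0 and 1 of 15 destruction complex genes, 0 and 1 of 12 TCF/LEF factors and cofactors, 1 and 0 of 8 other targets, and 0 of 7 secreted inhibitors. Of the 5 genes reported to be held down by TCF7L1, Nanog was lower (-0.60 ± 0.06). Tcf7l1 (0.41 ± 0.18, edgeR adjusted p = 0.22), Lef1 (-0.32 ± 0.35, adjusted p = 0.63), Ctnnb1 (-0.05 ± 0.06), Gsk3b (-0.06 ± 0.10), T (-0.49 ± 0.49) and Ccnd1 (-0.22 ± 0.20) did not pass. Without FL replicate 1, edgeR called 0 genes of all tested, so none of these calls held without it.

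The third comparison asked whether cells with an active BMP reporter differed from cells without one in the same serum culture. Differences were small: in CPM, Axin2, Nkd1 and Sp5 were lower and Cdx1 was higher in the BRE-positive library of every pair. In TPM this held for Axin2 and Cdx1, while Nkd1 was higher in the BRE-positive library of pair 3 (1.56 against 1.46). Sp5, with 7 to 22 counts in a library, was lower in CPM by next to nothing in pair 2. There its TPM was higher in the BRE-positive library (0.892 against 0.809). The share of all genes with 1 direction in all 3 pairs was not counted, so the agreement in CPM does not set these members apart. By edgeR with the pair as a block, 0 of 9 tested members passed, against 2.97% of 15435 genes tested, 1.96% higher and 1.02% lower. With unadjusted p under 0.05 by edgeR there were 2 (Axin2 and Cdx1), beside 2817 of the 15435 genes. DESeq2 called 0 members, beside 323 of the 15435 genes. Without pair 1, edgeR called 3 members (Axin2, Cdx1 and Notum) and 2225 of 15441 genes in all, against 459 with all pairs. It called 397 genes without pair 2 and 200 without pair 3. Axin2, Cdx1 and Notum were each uncalled in the other 11 of 12 alternatives.

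Axin2 had 10.1, 9.33 and 8.64 CPM in BRE-positive cells of pairs 1 to 3, against 11.5, 10.99 and 11.6 CPM in BRE-negative cells. The groups did not overlap, as for 7.33% of all genes tested. BRE-positive minus BRE-negative was -0.26 ± 0.09 on the log2 scale (SE, 95% interval -0.46 to -0.07, edgeR adjusted p = 0.15), and -0.30 ± 0.11 without pair 1 (adjusted p = 0.037).

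Cdx1 had 9.14, 19.7 and 20.6 CPM in BRE-positive cells, against 7.88, 16.6 and 17.6 CPM in BRE-negative cells. The BRE-positive library was 1.16, 1.18 and 1.17 times its partner, while the level itself was lower in pair 1 than in the other pairs. The log2 fold change was 0.25 ± 0.08 (SE, 95% interval 0.08 to 0.42, edgeR adjusted p = 0.10), and 0.26 ± 0.08 without pair 1 (adjusted p = 0.017).

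Notum had 10.1, 13.9 and 12.5 CPM in BRE-positive cells, against 9.72, 17.6 and 15.5 CPM in BRE-negative cells. It was lower in the BRE-positive library of pairs 2 and 3 and not of pair 1. The log2 fold change was -0.19 ± 0.09 (SE, edgeR adjusted p = 0.30), and -0.31 ± 0.09 without pair 1 (adjusted p = 0.0097). In pairs 1 to 3 the BRE-positive library had 0.872, 0.705 and 0.962 times the CPM of its partner for Nkd1. For Sp5 it had 0.872, 0.999 and 0.526 times. The other members had log2 fold changes between -0.31 (Sp5, SE 0.38) and 0.13 (Rnf43, SE 0.29), with edgeR adjusted p-values of 0.45 to 0.85. The narrowest intervals were those of Tcf7 (-0.22 to 0.10) and Znrf3 (-0.22 to 0.11).

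**Figure D4:**
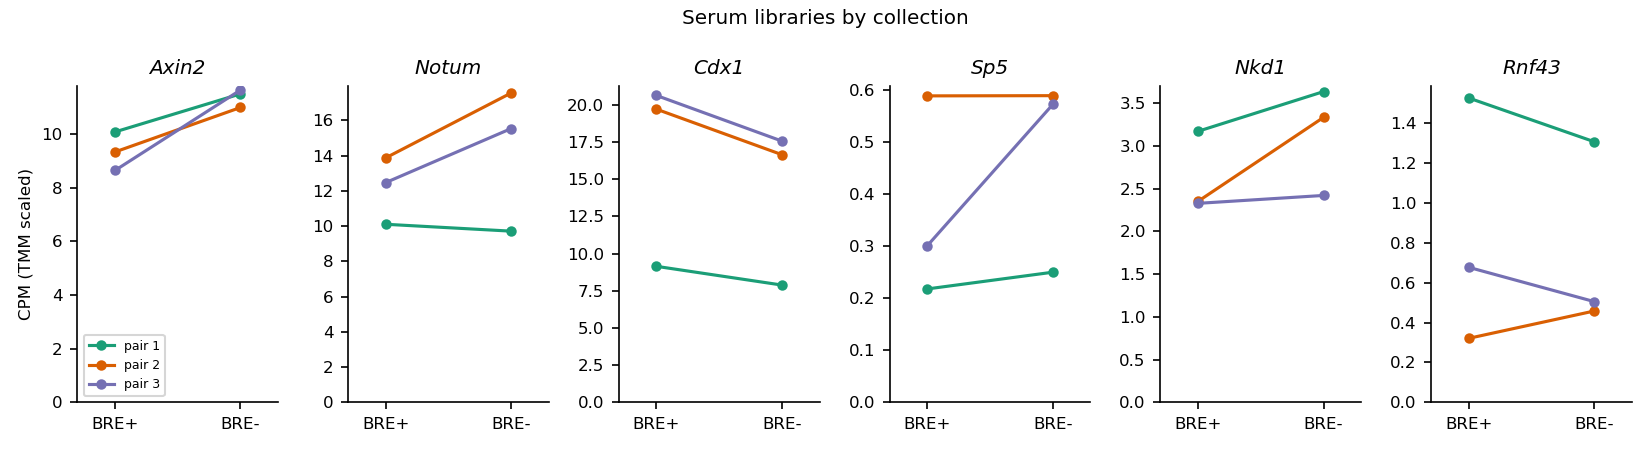
CPM (y axis, linear from 0, a separate scale for each gene) of 6 WNT target genes in the BRE-positive and BRE-negative library of each of the 3 serum collections, joined by a line. Axin2, Nkd1 and Sp5 are lower and Cdx1 higher in the BRE-positive library of every pair, with the 2 Sp5 values of pair 2 all but equal. Pair 1 is low for Notum, Cdx1 and Sp5 and high for Rnf43.

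The spread between collections was larger than that between the sorted cells for several members. The mean of a pair was 8.51 CPM in pair 1, 18.2 in pair 2 and 19.1 in pair 3 for Cdx1, and 9.91, 15.7 and 14.0 CPM for Notum. For Sp5 it was 0.234, 0.588 and 0.436 CPM, and for Rnf43 1.41, 0.389 and 0.590 CPM. Axin2 hardly moved, at 10.8, 10.2 and 10.1 CPM. The feeder markers other than Sparc also differed by collection: they summed to 113, 251 and 243 CPM in BRE-positive and 166, 290 and 319 CPM in BRE-negative cells of pairs 1 to 3. Between the sorted groups, 6 of 18 feeder markers were lower in BRE-positive cells and 0 higher by edgeR. Of all 15435 genes tested, 1.02% were lower and 1.96% higher. The part of feeder RNA in the members' values was not tested.

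In the rest of the pathway, 3 genes were called in BRE-positive cells, the coreceptor gene Lrp6 (log2 fold change 0.23 ± 0.05, SE) and the tankyrase gene Tnks (0.28 ± 0.06) upward and the cyclin gene Ccnd1 (-0.26 ± 0.06) downward. They were 1 of 18 receptor genes, 1 of 15 destruction complex genes and 1 of 8 other targets, beside 2.97% of all genes tested. Of 9 ligand and secretion genes, 8 secreted inhibitors and 12 TCF/LEF factors and cofactors, 0 passed by edgeR. Among the last, Tcf7l2 and Lef1 came close, in opposite directions. Tcf7l2 averaged higher in BRE-positive cells (0.46 ± 0.12, edgeR adjusted p = 0.058) and Lef1 lower (-0.75 ± 0.20, edgeR adjusted p = 0.062). Lef1 had 0.902, 2.91 and 0.639 CPM in BRE-positive and 2.08, 4.12 and 1.11 CPM in BRE-negative cells. T (-0.23 ± 0.43), Tcf7l1 (-0.01 ± 0.12), Ctnnb1 (-0.08 ± 0.05) and Gsk3b (0.16 ± 0.06) had edgeR adjusted p-values of 0.19 to 0.99.

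Genes whose pattern was most like that of the members were sought among 10839 named genes, by Pearson's correlation of log2 CPM over the 12 libraries, which fall into 2 cultures. For Axin2 they were Cbr3 (r = 0.991), Cds2 (0.989), Cs (0.988), Pdha1 (0.986) and Pnrc2 (0.985). Cbr3, which encodes a carbonyl reductase, stood at 86.9 to 98.0 CPM in KO, 51.8 and 62.1 CPM in FL, 13.0 to 13.5 CPM in BRE-positive and 14.8 to 16.7 CPM in BRE-negative cells, so its groups had the same order as those of Axin2. For the mean of the 9 tested members, each scaled to unit variance, they were Acaa2 (r = 0.942), Fzd8 (0.931), Snap29 (0.928), Slc25a12 (0.928) and Rab2a (0.925). That mean joins members higher in 2i, such as Axin2 and Notum, with Nkd1 and Cdx1, which were lower, so it is not the pattern of each member. Fzd8 encodes a WNT receptor and had 3.39 to 4.94 CPM in 2i and 1.59 to 3.46 CPM in serum. These correlations describe the 2 cultures more than single libraries and carry no test.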

How the data were processed

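Per the labels' protocols, total RNA was depleted of ribosomal RNA and made into stranded libraries. The submitters' processing notes name STAR 2.4.1d, featureCounts 1.4.6, DESeq2 1.6.3 and the builds mm10 and GRCm38.p4. The authors deposited raw counts for 39179 Ensembl genes and a TPM table, a normalised signal with symbols. By the values, that signal is (count + 1) per length and library, so it understates folds of low genes, and 722 of its 39032 entries repeat a gene and were dropped. The sources used here do not give the annotation release or strand setting.

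Titles gave the groups. Genes were tested with edgeR 4.0.16 under R 4.3.3 (quasi-likelihood, TMM, minimum count 10 and total 15), adjusted over all genes tested. The BRE fit has the pair as a block, since the series states paired collection (deviations correlated 0.606, 0.444 and 0.378 within pairs). The KO fit has none. For 2i against serum, the 2 libraries of a BRE pair were summed, giving 3 BRE, 2 FL and 4 KO samples in 1 fit. SE and 95% intervals come from the fold change and F statistic. CPM uses TMM over 12 libraries. Separate cultures are not described for each library, so a p-value reflects only how these libraries vary, which may be technical.

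Coordinates are from GENCODE M21 (GRCm38), 1-based. The members, the 13 lists (158 genes) and the rule for named genes were chosen with earlier results of these data known. The rule names all members, up to 4 called genes of a list with the largest change, 6 fixed pathway genes, and the 5 genes most like Axin2 and like the members' mean. Gsk3a, Egr1, Etv5, Col1a2, Sparc, Fut4 and, for BRE-positive cells, Tcf7l2 were named after their values were seen. Pou5f1 and Sox2 were named for their levels, and Smad1, Smad5 and Notumos also stand outside the rule. Alternatives were DESeq2 1.42.0, RLE scaling, other filters, limma 3.58.1 on log2(TPM + 1) and log2(TPM + 0.1), other sample sets, the replicate block, and leaving out each library or pair.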

Additional observations from a re-analysis of the deposited data

Results flagged for a closer look

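Axin2 in KO replicate 2 stood at 46.9 CPM, apart from the other 3 KO libraries at 33.7 to 35.5 CPM. The gap to the nearest library was 0.861 of the group's range, above the 95% critical value for 4 samples. It was the 1 such library among 10 members tested in KO cells, the one group of 4 libraries, and chance gives about 1 in 20.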

How the results depend on the processing

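In the comparison of FL in 2i with serum, all 21 alternatives for Axin2, Notum and Cdx1 and all 20 for Nkd1 kept the direction and the call. Sp5 and Apcdd1 lost the call with limma on log2(TPM + 1) (0.78 and 0.61), Apcdd1 also on log2(TPM + 0.1) (0.72), and each with 1 FL library left out. Without each library in turn, 5 to 6 members and 6366 to 8938 genes were called. With the replicate number as a block, which in this comparison is only a shared number, 6 members were called.

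Between KO and FL, 1 member (Axin2) was called with DESeq2, without a count filter and with 12 libraries in 1 fit. Of all genes, 1498 were called with DESeq2, 193, 98 and 149 with limma on log2(TPM + 1), on log2(TPM + 0.1) and with a mean TPM filter, and 0 with the replicate block (2589 with unadjusted p under 0.05). The numbers do not pair these libraries: deviations correlated 0.199 for number 1 and -0.349 for number 2. KO replicates 1 and 2 correlated with FL replicate 1 (0.199 and 0.349) and KO replicates 3 and 4 with FL replicate 2 (0.313 and 0.277), where 2 FL libraries deviate by construction in opposite ways. The labels give no line for a library, so no line was assigned from these values or fitted. Leaving out each library gave 0 to 857 genes (142 without FL replicate 2, 236 and 215 without KO replicates 3 and 4) and 0 members.

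Between BRE-positive and BRE-negative cells, 1010 genes were called without a count filter and 0 by limma on TPM (3 settings), with 12 libraries in 1 fit or with no replicate block (343 with unadjusted p under 0.05). Leaving out each pair gave 200 to 2225 genes and 0 to 3 members.

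Reversed signs concerned Tcf7, Znrf3 and Rnf43, and no reversed value passed its test. Between the BRE groups, limma gave Tcf7 0.025 to 0.027 and Znrf3 0.032 to 0.034, and Tcf7 ran from -0.111 to 0.007 with a pair left out (0.007 without pair 3). Between KO and FL, Tcf7 was 0.153 with the replicate block, and -0.202 to 0.159 with a library left out (0.159 without FL replicate 1, 0.056 without KO replicate 4). Between FL in 2i and serum, Tcf7 ran from -0.293 to 0.057 with a library left out (0.057 without FL replicate 2). There Rnf43 was -0.007 with DESeq2, -0.013 with RLE scaling, -0.029 without a filter, -0.018 with the 1 CPM filter, -0.875 for KO, -0.434 for the mean of FL and KO, and -0.639 to 0.719 with a library left out. The causes were not tested. Low counts limit Lgr5, Rnf43, Sp5 and Nkd1.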
